A study of Mus musculus with 3 samples.

Results

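Gigyf1 encodes GIGYF1, a GYF-domain adaptor protein first described as a partner of the signalling adaptor GRB10. GIGYF proteins bind the cap-binding protein 4EHP (gene Eif4e2) and hold it on messenger RNAs, where 4EHP occupies the cap without recruiting the initiation machinery, so translation of the message is repressed. In mammals this pair is brought to messages by RNA-binding proteins such as tristetraprolin, by the ribosome collision sensor ZNF598 (mouse gene Zfp598) and by microRNA silencing complexes. Here the peaks of AGO2 in the span of Gigyf1 itself are described. AGO2 is an Argonaute protein, which carries microRNAs to the messages they pair with. Whether the Gigyf1 transcript is a microRNA target was not tested.

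AGO2-bound RNA of P19 cells, a mouse embryonal carcinoma line, was recovered by HITS-CLIP. In this assay, proteins and RNA are crosslinked in living cells, and the RNA pulled down with an antibody is sequenced. The labels give 3 libraries made with the anti-AGO2 antibody clone 2D4, which form 1 group with no control or treated group, and name no separate cultures. The values were 4 lists of peaks over the combined libraries, called by CIMS, by Piranha, by Pyicoclip and by PIPE-CLIP. Without values of single libraries, no spread between them can be given and the depth is unknown. As all callers read the same libraries, the lists are not replicates of each other.

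The peaks of Gigyf1 were those with their midpoint in the gene span, chromosome 5, 137510263 to 137527935 in mm10, a length of 17673 nt, on either strand. This gave 22 of the 6911 peaks of the series, or 0.318%. CIMS contributed 3 of its 169 peaks, Piranha 3 of 1417, Pyicoclip 7 of 2068 and PIPE-CLIP 9 of 3257. Gigyf1 was selected on the number of its peaks in the 4 lists and on its site found by all of them, so these counts, the shared site and the scores are given as a description, with no test. No peak lay close to either boundary of the span on the outside, the nearest being 203163 nt upstream and 166846 nt downstream. All 22 peaks lay in exactly 1 gene span.

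The cell line was set beside markers, with the limit that a peak list holds bound RNA and is no measure of expression. Of 12 markers of pluripotent cells, 4 held a peak, namely Lin28a with 12 peaks, Lefty1 with 7, Lin28b with 2 and Pou5f1 with 1, while Sox2 and Nanog held none. Only 4 of the 7 Lefty1 peaks lay in exactly 1 gene span, so the gene of origin of the others is uncertain. None of 12 markers of neural, muscle and other differentiated cells held a peak. Over all protein-coding genes the share with a peak was 9.77%, so 0 of 12 is close to that background and says little about the line. Each list held only peaks with a score of 10 or more, and a site below that score would be missed.

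All 22 Gigyf1 peaks were on the plus strand, which is the strand of the gene in the RefSeq promoter table. The strand played no part in choosing the peaks. Among other protein-coding genes of the plus strand, the share of stranded peaks on the strand of the gene was 88.8% of 215 in PIPE-CLIP (95% Wilson interval 83.9 to 92.4), 71.1% of 418 in Pyicoclip (66.5 to 75.2), 78.3% of 23 in CIMS (58.1 to 90.3) and 57.4% of 251 in Piranha (51.2 to 63.3). Peaks of 1 transcript share their source, so the 22 are not independent draws and no test was made. All-sense peaks were common among genes with many peaks. Of 26 protein-coding genes with a known strand and at least 10 stranded peaks, Gigyf1 included, 23 had all of them on their own strand, or 88.5%, so Gigyf1 was like most of these genes in this respect. This set holds genes of both strands. Over all lists, the sense share was 90.6% in minus-strand genes and 71.7% in plus-strand genes other than Gigyf1.

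The strand matters most for PIPE-CLIP, which held 422 plus-strand and 2835 minus-strand clusters. The 9 Gigyf1 clusters made up 2.13% of the plus-strand ones. Of protein-coding genes, 0.00913% held at least 9 plus-strand clusters, which were Gigyf1 and Peg10, the latter with 15. When both strands were counted, Gigyf1 held the 20th rank for PIPE-CLIP clusters among 1560 genes with any, shared by 3 genes.

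Merging peaks that overlapped by at least 1 nt gave 8 sites in Gigyf1, which are numbered here from 5′ to 3′. Of these sites, 1 held peaks of all 4 lists, 2 held peaks of 3 lists, 3 of 2 lists and 2 of 1 list. Each site is given by its outer bounds.

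**Figure D1:**
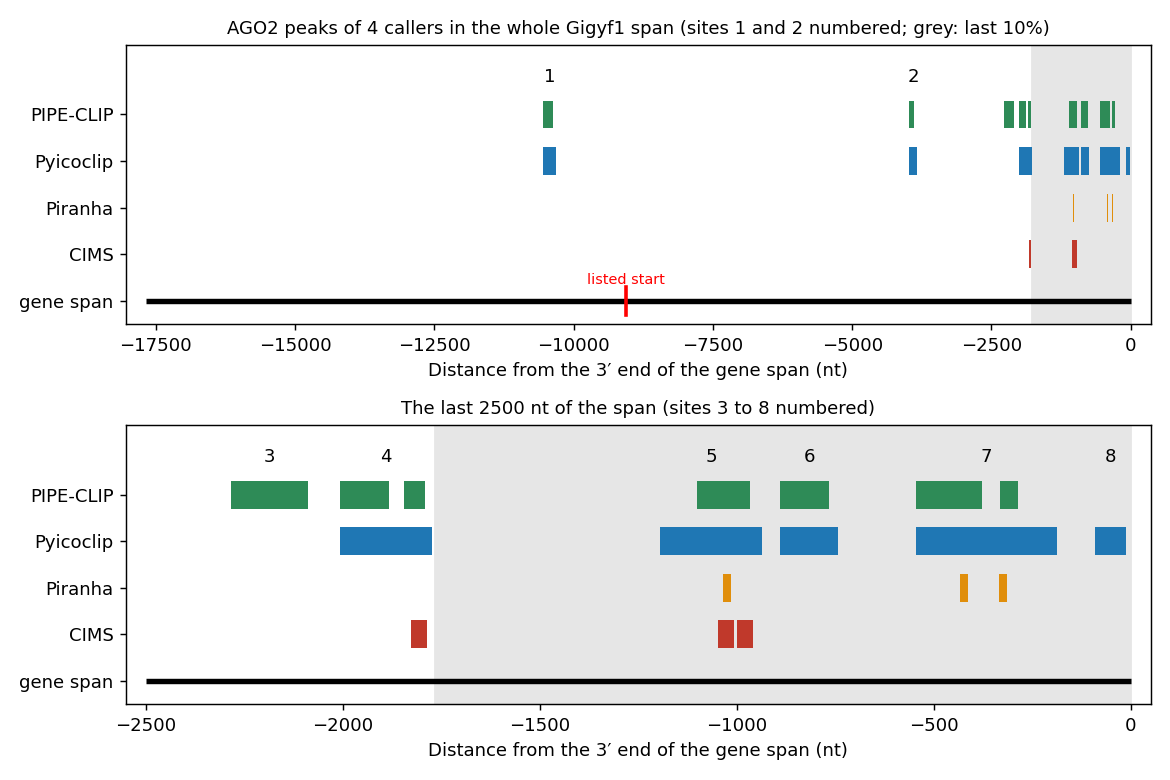
Peaks of the 4 callers (rows, coloured bars drawn to scale) along the Gigyf1 span, with the distance from the 3′ end of the span in nt on the horizontal axis, for the whole span above and the last 2500 nt below. The grey area is the last 10% of the span, the red mark is the transcript start of the promoter table, and 18 of the 22 peaks lie in the last 2500 nt.

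Site 5, at 137526740 to 137526999, was the one found by all 4 callers. Its Pyicoclip peak spanned the whole 260 nt and scored 27, the highest Pyicoclip score of the gene. The PIPE-CLIP cluster at 137526833 to 137526968 scored 24, the highest PIPE-CLIP score of the gene. CIMS, which marks positions where reads carry crosslink-induced mutations, placed 41-nt windows at 137526886 to 137526926 with a score of 19 and at 137526935 to 137526975 with a score of 11. The Piranha peak, a 20-nt bin at 137526901 to 137526920 scoring 15, lay wholly inside the first CIMS window, the PIPE-CLIP cluster and the Pyicoclip peak. All 4 lists thus shared these 20 nt, and the second CIMS window lay outside them, its centre 49 nt from that of the first.

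Site 7, at 137527390 to 137527747, was the widest at 358 nt and held 5 peaks of 3 lists. Inside the 1 Pyicoclip peak, which scored 20, PIPE-CLIP had separate clusters of 166 nt with a score of 22 and of 47 nt with a score of 13. A Piranha bin at 137527501 to 137527520, with a score of 11, lay inside the wider cluster. Another at 137527601 to 137527620 overlapped the narrower one by 19 nt and scored 16, the highest Piranha score of the gene. Site 7 had no CIMS peak.

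Site 4, at 137525927 to 137526161, had the same layout with a CIMS peak in place of Piranha. Its Pyicoclip peak scored 18 and held PIPE-CLIP clusters scoring 13 and 10. The CIMS window at 137526107 to 137526147, with a score of 18, overlapped the lower-scoring cluster by 37 nt and did not reach the other.

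Each of the 3 CIMS peaks of Gigyf1 had a second number, m, of 3 in its name, the lowest in the list, which 87 of the 169 CIMS peaks shared. What m counts is not stated in the files. No CIMS peak of Gigyf1 thus rose above the lowest m of the list.

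The other sites were found by Pyicoclip and PIPE-CLIP. Site 6, at 137527045 to 137527192, was 45 nt downstream of site 5 and scored 21 in Pyicoclip and 20 in PIPE-CLIP. Site 2, at 137523960 to 137524089, scored 14 in both. Site 3, at 137525651 to 137525845, was a PIPE-CLIP cluster alone, with a score of 19, and site 8, at 137527845 to 137527923, a Pyicoclip peak alone, with a score of 16. Site 8 ended 12 nt before the end of the span.

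Site 1 lay apart from the rest, at 137517392 to 137517612 and 6347 nt upstream of site 2. It scored 15 in Pyicoclip and 20 in PIPE-CLIP. The promoter table lists 1 transcript start for Gigyf1, at 137518880, which is 8617 nt inside the span, and site 1 ended 1268 nt upstream of it. The 2 peaks of site 1 were thus upstream of the listed start and the other 20 were downstream, and none overlapped the promoter window around that start. Exons and untranslated regions were not used here, so whether a site is exonic or intronic is not stated.

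The 8 sites were unevenly spread. They covered 1626 nt, or 9.20% of the span. In the last 10% of the span, covered length was 845 of 1768 nt, or 47.8%, and in the part before it 781 nt, or 4.91%. Sites 5 to 8, or 4 of the 8 sites, and 13 of the 22 peaks lay in that last part, for peaks a share of 59.1%. The Wilson interval of that share, 38.7 to 76.7, treats the peaks as independent, which they are not. Site 4 ended just before that last part, so the share is sensitive to the boundary. In the last 20% of the span lay 18 of 22 peaks, or 81.8%. Counted from the listed transcript start, 8 of 20 peaks, or 40.0%, were in the last 10%. In other plus-strand protein-coding genes, 46.8% of the sense peaks of all lists together lay in the last 10% of the span (43.0 to 50.6). That value lies inside the Gigyf1 interval of 38.7 to 76.7 and above the 40.0% counted from the listed start. The difference was not tested.

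By caller, the last 10% of the span held all 3 Piranha peaks and 2 of 3 CIMS peaks. It held 4 of the 7 peaks by Pyicoclip and 4 of the 9 clusters by PIPE-CLIP. In other plus-strand protein-coding genes, sense peaks there made up 30.6% in Piranha (23.6 to 38.5), 44.4% in CIMS (24.6 to 66.3), 44.8% in Pyicoclip (39.2 to 50.5) and 62.3% in PIPE-CLIP (55.3 to 68.9). The Gigyf1 share was thus above that of other genes in 3 lists and below it in PIPE-CLIP, with 44.4%. With 3 to 9 peaks per list these differences were not tested.

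**Figure D2:**
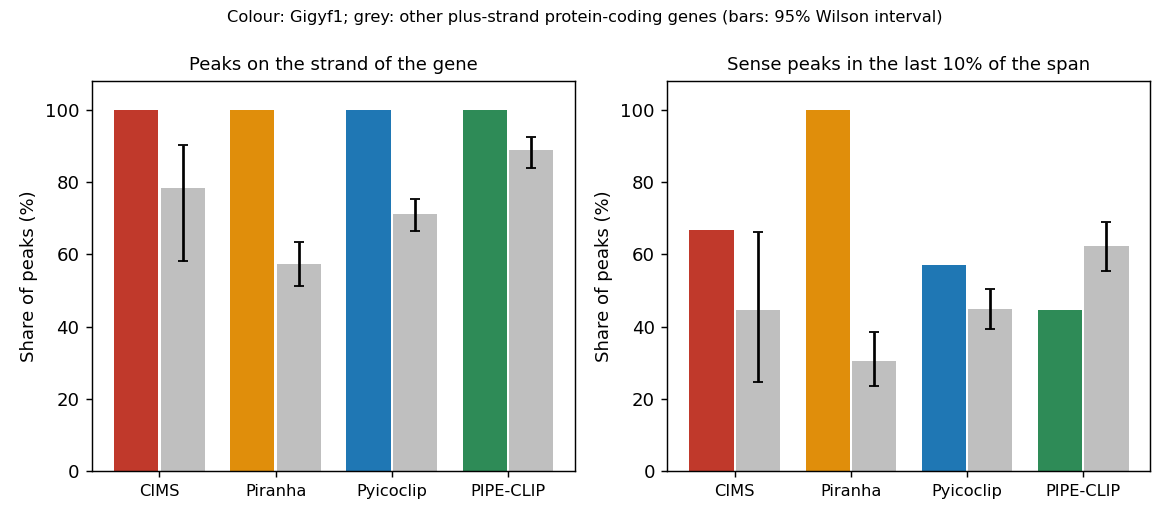
Share of stranded peaks on the strand of the gene (left) and share of sense peaks in the last 10% of the gene span (right), in percent, for each caller. Coloured bars are Gigyf1, with 3, 3, 7 and 9 peaks, and grey bars are other plus-strand protein-coding genes with 95% Wilson intervals, which treat each peak as independent. All Gigyf1 bars on the left are at 100%, and on the right Gigyf1 is below the other genes in PIPE-CLIP.

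The callers drew the same sites in different ways. Of the 9 PIPE-CLIP clusters, 8 overlapped a peak of another list on the same strand, as did 6 of 7 Pyicoclip peaks and all 3 CIMS and 3 Piranha peaks. The shares over whole lists given next also count overlaps in which a peak has no strand. They were 83.3% in Pyicoclip, 100% in CIMS and 99.9% in Piranha, so the Gigyf1 counts were near the background. In the whole PIPE-CLIP list this share was 20.8% (19.5 to 22.2), and among its plus-strand clusters 78.4% (74.3 to 82.1), so the Gigyf1 clusters were close to others of their strand. At 5 of the 6 sites with peaks of both Pyicoclip and PIPE-CLIP, the nearest starts of the peaks differed by at most 2 nt, while the ends differed by 25 to 191 nt between the peaks with those starts. Site 5 was the exception, where Pyicoclip began 93 nt before PIPE-CLIP. Starts within 2 nt were also usual elsewhere, in 73.5% of 577 other overlapping Pyicoclip peaks (69.7 to 76.9).

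The Pyicoclip peaks of Gigyf1 were wide. Their widths ran from 79 to 358 nt with a median of 221 nt, against a median of 29 nt in the list. All 7 were over 60 nt, a width passed by 37.6% of the list. PIPE-CLIP clusters of Gigyf1 had a median of 125 nt, against 85 nt in the list.

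Scores are the authors' values, their unit is not stated, and they serve here to rank the peaks of 1 list against each other. The best Pyicoclip peak of Gigyf1, at site 5, scored above 93.1% of its list, and the best PIPE-CLIP cluster, also at site 5, above 86.8%. The best Piranha peak, at site 7, scored above 80.6% of its list. The best CIMS peak, at site 5, scored above only 39.1% of its list. The CIMS scores of 11, 18 and 19 were all under the list median of 27. At or above the median of their list were all 7 Pyicoclip peaks, with a list median of 12, 6 of 9 PIPE-CLIP clusters, with 14, and 2 of 3 Piranha peaks, with 12. Among Pyicoclip peaks within 1.5 times its width, the peak of site 5 scored above 73.2%. The best PIPE-CLIP cluster scored above 77.7% of plus-strand clusters and above 78.5% of clusters within 1.5 times its width.

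**Figure D3:**
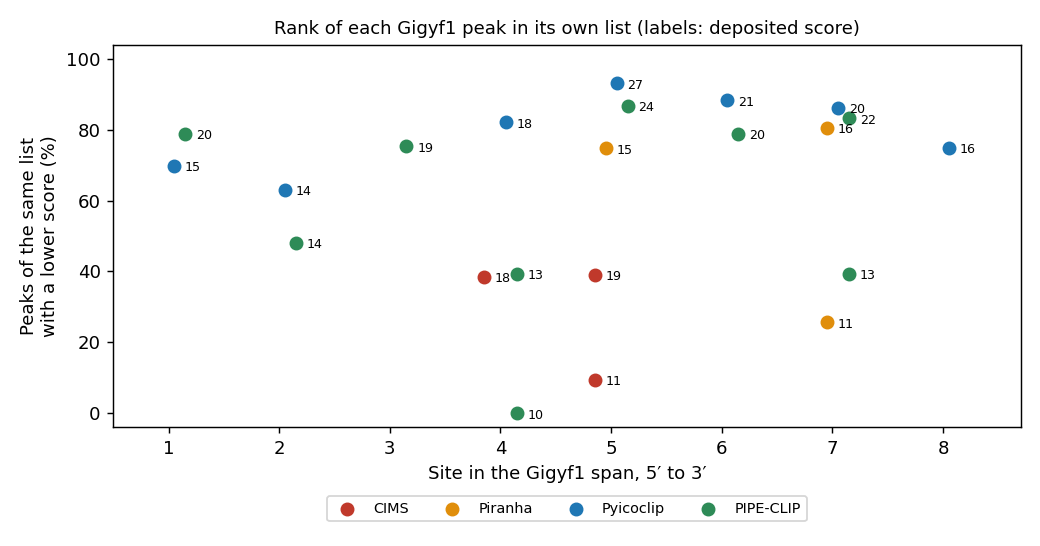
For each Gigyf1 peak (points, coloured by caller, with the deposited score beside them), the percentage of peaks in the same list with a lower score on the vertical axis, by site from 5′ to 3′. Site 5 holds the highest points of Pyicoclip and PIPE-CLIP, at 93.1% and 86.8%, and the 3 CIMS points are all below 40%.

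Read per gene, Gigyf1 ranked 3rd in Pyicoclip, 4th in CIMS, 9th in Piranha and 20th in PIPE-CLIP by its number of peaks, each rank shared with other genes. Of 21900 protein-coding genes, 0.279% held a CIMS peak, 2.89% a Piranha peak, 4.54% a Pyicoclip peak and 7.12% a PIPE-CLIP cluster. Only 0.105%, or 23 genes, held peaks in all 4 lists, and 0.0822% held a site merged from all 4. By the sum over lists, Gigyf1 with 22 peaks followed the mitochondrial gene ND5 with 37, Peg10 with 34 and Slc2a3 with 30, and the median of 2140 genes with any peak was 2. By merged sites it held the 24th rank, which it shared with others at 8 sites, and by covered nucleotides the 9th. By peaks per kb of span, with 1.24, it held the 32nd rank. No RNA level was measured, so heavy binding and an abundant transcript cannot be told apart.

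The 4 genes whose counts per list were nearest to those of Gigyf1 were Zbtb7a, a transcriptional repressor gene, Ccng2, the gene of cyclin G2, Slc38a2, an amino acid transporter gene, and Lin28a, the gene of an RNA-binding protein that blocks let-7 maturation. Likeness was the sum of absolute differences in peak number over the 4 lists, among the 23 genes with peaks in all of them. Zbtb7a differed by 5 peaks in all, with 1 CIMS, 2 Piranha, 6 Pyicoclip and 8 PIPE-CLIP peaks in a span of 16998 nt, close to that of Gigyf1. Ccng2 differed by 6, with 1, 2, 6 and 7 peaks in that order. Slc38a2 differed by 9 and Lin28a by 10. Slc38a2 and Lin28a are on the minus strand, of which PIPE-CLIP held far more clusters. Their PIPE-CLIP counts, and the differences built on them, are thus not on an equal footing with Gigyf1.

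In layout these genes were like Gigyf1 in some respects and unlike it in others. The last 10% of the span held 59.1% of the peaks in Gigyf1, 60% in Slc38a2, 52.9% in Zbtb7a, 31.2% in Ccng2 and 83.3% in Lin28a. Ccng2, Slc38a2 and Lin28a each had 1 site found by all callers, as Gigyf1 did. Zbtb7a, also on the plus strand, had 7 sites with none found by all 4 callers, although its best Pyicoclip and PIPE-CLIP peaks scored higher, at 47 and 48 against 27 and 24. Ccng2 had 8 sites in a span of 8659 nt, and 13 of its 15 stranded peaks were sense. Peaks that overlapped another list made up 90.9% in Gigyf1, 88.2% in Zbtb7a, 87.5% in Ccng2, 75.0% in Lin28a and 46.7% in Slc38a2. Slc38a2 is on the minus strand, all its peaks are on that strand and 10 of the 15 are PIPE-CLIP clusters. In that list 20.8% of all clusters and 78.4% of the plus-strand ones overlapped another list. Lin28a is also on the minus strand, with 6 of its 12 peaks by PIPE-CLIP. Whether strand or caller bears on the shares of these genes was not tested. The best PIPE-CLIP cluster of Lin28a scored 144. All 4 genes had 1 CIMS peak each, against 3 in Gigyf1, and 2 other protein-coding genes shared the Gigyf1 count.

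**Figure D4:**
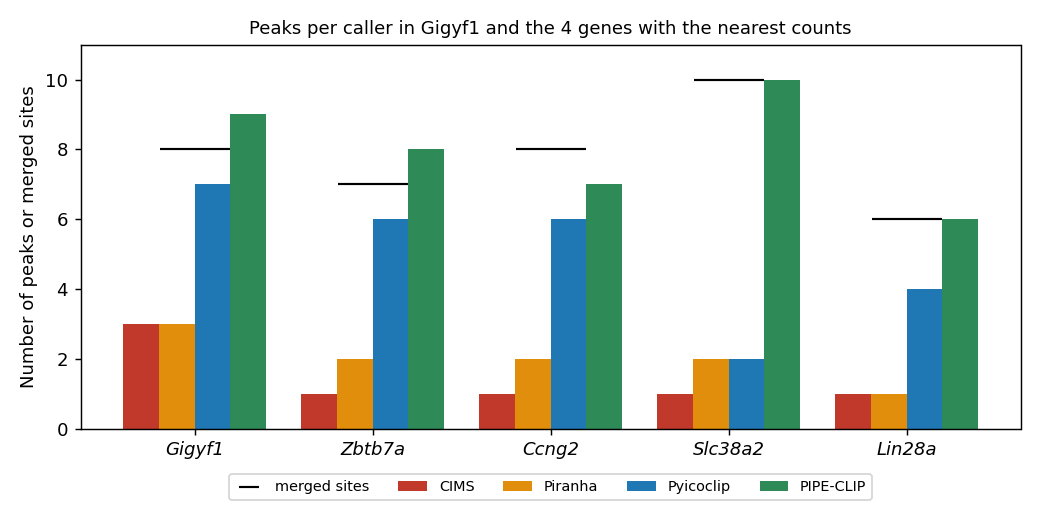
Number of peaks per caller (coloured bars) and of merged sites (black lines) in Gigyf1 and in the 4 genes with the nearest counts. Gigyf1 has 3 CIMS peaks where each of the others has 1, and its 8 sites lie within the range of 6 to 10 of the others. Slc38a2 and Lin28a are on the minus strand, of which PIPE-CLIP held far more clusters.

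The genes that act with GIGYF1 were then read from 5 pathway lists of 61 genes in all, Gigyf1 left out. Of these, 23 held a peak, or 37.7%, against 9.77% of all protein-coding genes, a background that includes genes not expressed in these cells. None held a CIMS peak, which at a background of 0.279% says nothing about these genes. Without PIPE-CLIP the count was 12 of 61, against 4.58% of all protein-coding genes. The 5 lists were chosen with earlier results of these data known. The shares given here and for each list below are thus a description and no independent result.

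Among the partners of GIGYF1 and the proteins that recruit it, 2 of 7 held a peak, against 9.77% of all protein-coding genes. Zfp36, the gene of tristetraprolin, had 1 peak each of Piranha, Pyicoclip and PIPE-CLIP, of which 1 was on the strand of the gene and 2 were antisense to it. Zfp36l2, a relative of Zfp36, had 4 PIPE-CLIP clusters, all on the minus strand, of which that list held far more. The promoter table gave Zfp36l2 no strand, so whether they are sense is unknown. The paralog Gigyf2, the 4EHP gene Eif4e2, Zfp598, Edf1, which acts with GIGYF2 at collided ribosomes, and Zfp36l1 held no peak in any list.

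Among deadenylases and their partners, 6 of 17 held a peak, against 9.77% of all protein-coding genes. Cnot6, a catalytic subunit of the CCR4-NOT deadenylase, had 2 Pyicoclip peaks and 14 PIPE-CLIP clusters, all 16 on the strand of the gene. Cnot6 is on the minus strand, of which PIPE-CLIP held far more clusters, so its count is not set against that of Gigyf1. Its paralog Cnot6l had 4 PIPE-CLIP clusters, and Btg1 and Tob2, of the antiproliferative family that binds CCR4-NOT, had 3 peaks each. Cnot1, the scaffold of the complex, held none.

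Of 19 genes of GW182, Argonaute, decapping and repressor proteins, 8 held a peak, against 9.77% of all protein-coding genes. Peaks in at least 2 lists were held by 7 of the 19, against 3.99% of all protein-coding genes. Tnrc6a, a GW182 protein gene that links Argonaute to the deadenylases, had 2 Piranha, 5 Pyicoclip and 5 PIPE-CLIP peaks, all 12 sense. Its best Pyicoclip peak scored 30, above the 27 of Gigyf1. Tnrc6b had 7 peaks and Ago1 had 8. Ago2, the gene of the protein pulled down, had 2 Pyicoclip peaks and 12 PIPE-CLIP clusters. These clusters were on the minus strand, so the count of Ago2 is not set against that of Gigyf1 either. Ddx6, the helicase that joins CCR4-NOT to decapping, and the decapping enzyme gene Dcp2 held none.

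Of 10 genes of cap binding and initiation, 4 held a peak, against 9.77% of all protein-coding genes. Eif4a1 and Eif4a2, the genes of the helicase eIF4A, had 5 peaks each in 3 lists, of which 3 and 1 lay in exactly 1 gene span, so the gene of origin of the others is uncertain. Eif4g2 had 5 PIPE-CLIP clusters and Eif4ebp2, an inhibitor of the cap-binding protein eIF4E, had 2, and Eif4e itself held none. Of 8 genes of GRB10 and insulin or IGF signalling, 3 held a peak, all by PIPE-CLIP alone. Of all protein-coding genes, 7.12% held a PIPE-CLIP cluster. These 3 genes are on the minus strand, of which PIPE-CLIP held far more clusters. Irs1 had 3 clusters, and Grb10, the first known partner of GIGYF1, and Igf2 had 1 each with scores of 11 and 10.

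**Figure D5:**
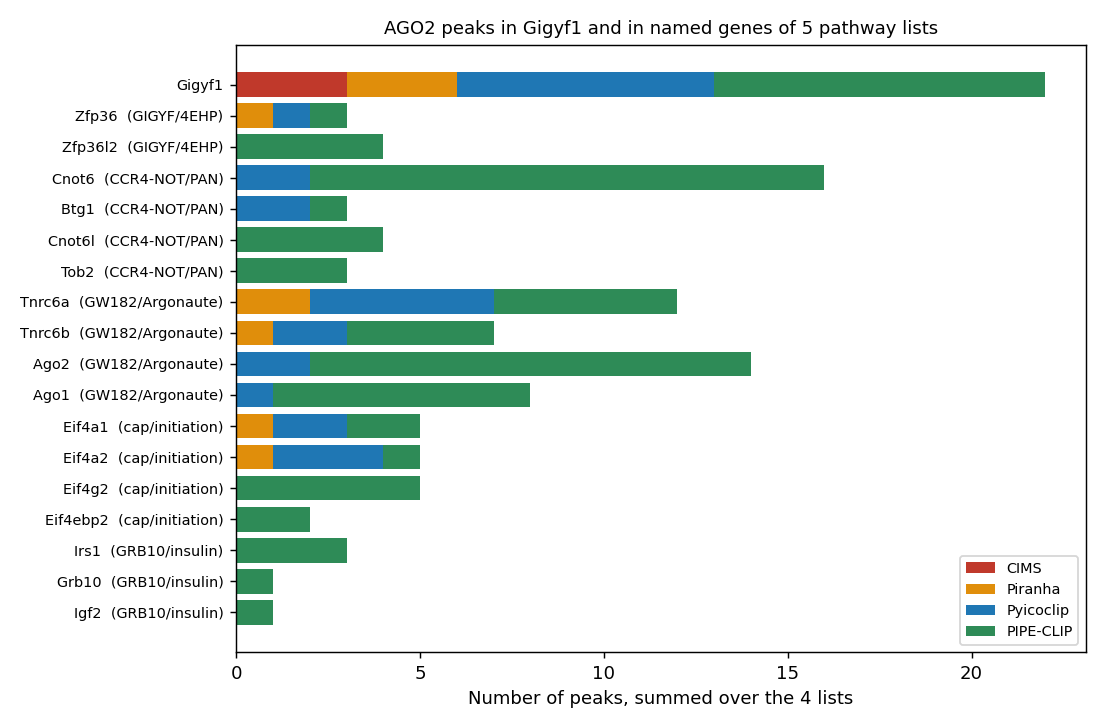
Number of AGO2 peaks, summed over the 4 lists and coloured by caller, in Gigyf1 and in the genes named from each of 5 pathway lists. Gigyf1 is the only gene drawn with CIMS peaks, but it was selected on a site of all 4 callers, which requires one. Of all protein-coding genes, 0.279% held a CIMS peak. The longest other bars are Cnot6, Ago2 and Tnrc6a with 16, 14 and 12 peaks. The PIPE-CLIP clusters of Cnot6 and Ago2, 14 and 12, are on the minus strand, of which that list held far more. Their totals are thus not set against the 22 of Gigyf1. The PIPE-CLIP clusters of Zfp36l2, Cnot6l, Tob2, Ago1, Eif4a1, Eif4g2 and Eif4ebp2 are also on the minus strand.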

How the data were processed

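AGO2 HITS-CLIP of P19 cells was analysed from 4 peak lists that the authors deposited, each with 1 score per peak, the only measured value. The score has no stated unit and ranks peaks within a list only. The submitters' processing notes name the tools cutadapt and Novoalign and the build mm10. How the callers were set and how the 3 libraries were pooled is not given in the sources used here, and no spread or test over libraries was possible. Per the labels' protocols, libraries were amplified by PCR, with no molecular identifiers named, so intervals cover counting error only.

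Gene spans came from a RefSeq table of GRCm38.p6, whose coordinates are those of mm10, and gene strands from a RefSeq promoter table, which gave 79.9% of 21900 protein-coding genes a strand. Peaks were assigned by midpoint and merged where they overlapped by at least 1 nt, with strand ignored. Strand and position shares used peaks in exactly 1 gene span. All positions count from 1. Assignment and merging were tested on simulated data, with sites far apart on the plus strand in genes that did not overlap. Close sites and overlapping spans were thus not tried. The gene, the pathway lists and the rules were chosen with earlier results of these data known. Named genes were up to 4 per pathway list, by number of lists and then of peaks, the 4 genes nearest in peak counts, and genes within 100 kb of Gigyf1. Genes with no peak and the genes with more peaks than Gigyf1 were named after their values were seen. Seed matches were planned and not run, since no genome sequence was used. Software was matplotlib 3.10.9, scipy 1.17.1, pandas 2.3.3 and numpy 2.4.6 under Python 3.11.15.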

Additional observations from a re-analysis of the deposited data

How the results depend on the processing

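The alternatives covered assignment, strand, merging, score, the caller left out, position and pathway lists. Of 54, 13 were called moved, which for counts took a change of more than 1.5 fold. The count was again 22 peaks when any overlap with the span or the plus strand alone was used. The number of sites was 8 when merging was within a strand and 7 when gaps of up to 50 nt were merged. Restricted to scores at or above the list median, CIMS had 0 Gigyf1 peaks. All lists together then had 15 peaks instead of 22, and PIPE-CLIP 6 instead of 9, neither called moved. The share in the last 10% counted from the listed transcript start, 40.0%, was not called moved either. Sites found by all remaining callers numbered 2 without CIMS or without Piranha. The share of peaks in the last part of the span was 81.8% when the last 20% was taken. The rank by peaks was 9 by covered nucleotides and 32 by peaks per kb. The percentage of lower-scoring peaks below the best Gigyf1 peak became 83.9 in Piranha and 95.1 in Pyicoclip among peaks in protein-coding spans, 82.7 in Piranha and 77.7 in PIPE-CLIP among plus-strand peaks, and 73.2 in Pyicoclip and 78.5 in PIPE-CLIP among peaks of like width. Without PIPE-CLIP, 12 pathway genes held a peak instead of 23. The span from the listed transcript start and the rank without mitochondrial genes, which was 3, were chosen after seeing the data. No paired analysis was possible because the libraries form 1 group and no value per library was used. No library could be left out for the same reason.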

Other observations

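No peak of any list lay within 100 kb of the Gigyf1 span outside it, and none of the 16 annotated genes there held one. They include Gnb2, a G protein subunit gene on the opposite strand whose span begins 191 nt after the end of Gigyf1, and Epo, the erythropoietin gene. The sites at the 3′ end of Gigyf1 were all on its own strand, opposite to that of Gnb2.

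Peak names carry running numbers that rise with position among the 31 PIPE-CLIP clusters and the 9 CIMS peaks on the plus strand of chromosome 5. The PIPE-CLIP clusters of Gigyf1 run from number 164719 to 164770, a stretch of 52 numbers of which 9 are in the list, and the CIMS peaks from 1763 to 1779, a stretch of 17 numbers of which 3 are. The other numbers were not analysed here.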
